A study of Mus musculus with 24 samples.

Results

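The 10 genes described here carry out iron uptake, storage, export and recycling in mouse cells, or set those steps: Tfrc, Slc11a2, Steap3, Slc25a37, Fth1, Ftl1, Slc40a1, Hmox1, Ireb2 and Aco1. They were chosen by gene name in the authors' annotated table and read from the authors' count table, where they are 10 of 29716 genes, and all 10 passed the filter on low counts. RNA-seq counts were available for 24 libraries from E10.5 embryos of the C57BL/6J strain, sorted into 3 CD31+ populations. The populations were Kit+ CD45+, Kit+ CD45- and Kit- CD41+ CD45- cells, each with 4 anti-Dll4 and 4 IgG libraries. Anti-Dll4 embryos received an antibody to Dll4, a ligand of Notch receptors, and IgG embryos a control antibody (anti-human IgG). In both, the antibody was injected into the heart, and the embryos were then cultured for 5 h at 37 °C under 5% CO2. The medium of both groups held 5 µg/ml of the antibody, 10 ng/ml interleukin-3 and 10 µM hydrocortisone, so the IgG libraries are cultured and cytokine-treated controls too. The number of embryos per library is not stated in the labels, so each p-value reflects the spread among these libraries, which may be technical.

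Cells take up transferrin-bound iron through the transferrin receptor, reduce it in the endosome and pass it to the cytosol, from where mitochondria draw it for heme and iron-sulfur clusters. Surplus iron is stored in ferritin or leaves the cell through ferroportin, and macrophages recover iron from heme with heme oxygenase. The iron regulatory proteins bind hairpins called iron-responsive elements: binding in a 5′ UTR blocks translation, and binding in a 3′ UTR protects the mRNA from decay. Developing red cells have the highest demand for this supply, because hemoglobin takes up most of it.

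Library totals ran from 8718351 to 11379830 counts. The sorting genes followed the labels, and Pecam1 (CD31) was present in all groups, with means of 52.3 to 250.3 CPM (counts scaled to a common library total). Ptprc (CD45) averaged 79.1 and 82.3 CPM in Kit+ CD45+ cells under anti-Dll4 and IgG, and at most 0.811 CPM in every other group. Kit averaged 1.87 to 3.84 CPM in Kit- CD41+ CD45- cells and 33.6 to 64.2 CPM elsewhere, and Itga2b (CD41) 427 to 539.8 CPM in Kit- CD41+ CD45- cells and 14.6 to 58.6 CPM elsewhere. The 8 globin genes took 16.8% to 49.3% of all counts in Kit+ CD45- libraries, 4.17% to 14.1% in Kit- CD41+ CD45- libraries and at most 0.0226% in Kit+ CD45+ libraries. A list of 20 megakaryocyte and platelet markers summed to 27438 to 34845 CPM in Kit- CD41+ CD45- libraries and at most 4674 CPM in the others. The 3 libraries of anti-Dll4 replicate 1 stood apart from the other 21, with 523 to 1244 counts of the Y-linked gene Ddx3y and 1 to 5 counts of Xist, against 0 to 15 and 1455 to 2705 counts in the others. Bulk libraries cannot tell fewer cells of a type from less RNA per cell.

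Of the 10 genes, 5 hold at least 1 match to an iron-responsive hairpin in a coding transcript of GENCODE M21. These are printed with the UTR that holds them. The search asked, on the transcript's own strand, for a C, any 5 bases, then the 6-base loop CAGTG with a last base other than G, and for at least 4 of 5 pairs (G-U pairs allowed) in the stem above the bulged C. Capitals mark the loop, and positions are on GRCm38, which mm10 names as well. The same search matched 1760 of 21901 genes with a coding transcript (8.04%), so a match is a description and not a binding site.
Tfrc, 3′ UTR, chr16:32631218-32631247, + strand: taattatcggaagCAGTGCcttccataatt
Tfrc, 3′ UTR, chr16:32631597-32631626, + strand: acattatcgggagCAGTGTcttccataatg
Tfrc, 3′ UTR, chr16:32631662-32631691, + strand: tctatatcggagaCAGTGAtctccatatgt
Tfrc, 3′ UTR, chr16:32631709-32631738, + strand: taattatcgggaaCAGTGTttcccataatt
Slc11a2, 3′ UTR, chr15:100395153-100395182, - strand: gagccatcagagcCAGTGTgtttctatggt
Fth1, 5′ UTR, chr19:9982731-9982760, + strand: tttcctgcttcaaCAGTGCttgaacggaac
Ftl1, 5′ UTR, chr7:45459779-45459808, - strand: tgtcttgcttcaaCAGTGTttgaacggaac
Slc40a1, 5′ UTR, chr1:45925465-45925494, - strand: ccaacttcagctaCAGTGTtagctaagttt
The 2 uptake genes with hairpins carried them in the 3′ UTR, and the 2 ferritin genes and the export gene in the 5′ UTR. The Slc11a2 hairpin paired at 4 of 5 positions and the other 7 at 5 of 5. Hairpins lay in 1 of 3 coding transcripts of Tfrc, 1 of 6 of Slc11a2, 4 of 5 of Fth1, 1 of 2 of Ftl1 and 1 of 4 of Slc40a1. No hairpin that met the search, letters and pairing together, was found in coding transcripts of Steap3, Slc25a37, Hmox1, Ireb2 or Aco1. The counts are per gene, so they do not show which transcripts with or without a hairpin were present.

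Across populations, the uptake genes Tfrc and Slc25a37 and the storage gene Fth1 were highest in the globin-rich Kit+ CD45- cells, while the heme-recycling gene Hmox1 was highest in Kit+ CD45+ cells. The export gene Slc40a1 was far lower in Kit- CD41+ CD45- cells than in either Kit+ population. Ireb2 and Aco1, which encode the iron regulatory proteins, did not pass the test in any pair in the main model, which has no replicate block. With a block by antibody and replicate number, each passed in 1 pair under anti-Dll4 (adjusted p = 0.0376 and 0.0282 by edgeR). No gene of the 10 passed the test for an effect of anti-Dll4 in any population. Levels below are CPM scaled with TMM factors, log2 differences come with their standard error (SE), and adjusted p-values come from edgeR's quasi-likelihood test with Benjamini-Hochberg adjustment over 15618 genes, with 0.05 as the threshold.

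**Figure D1:**
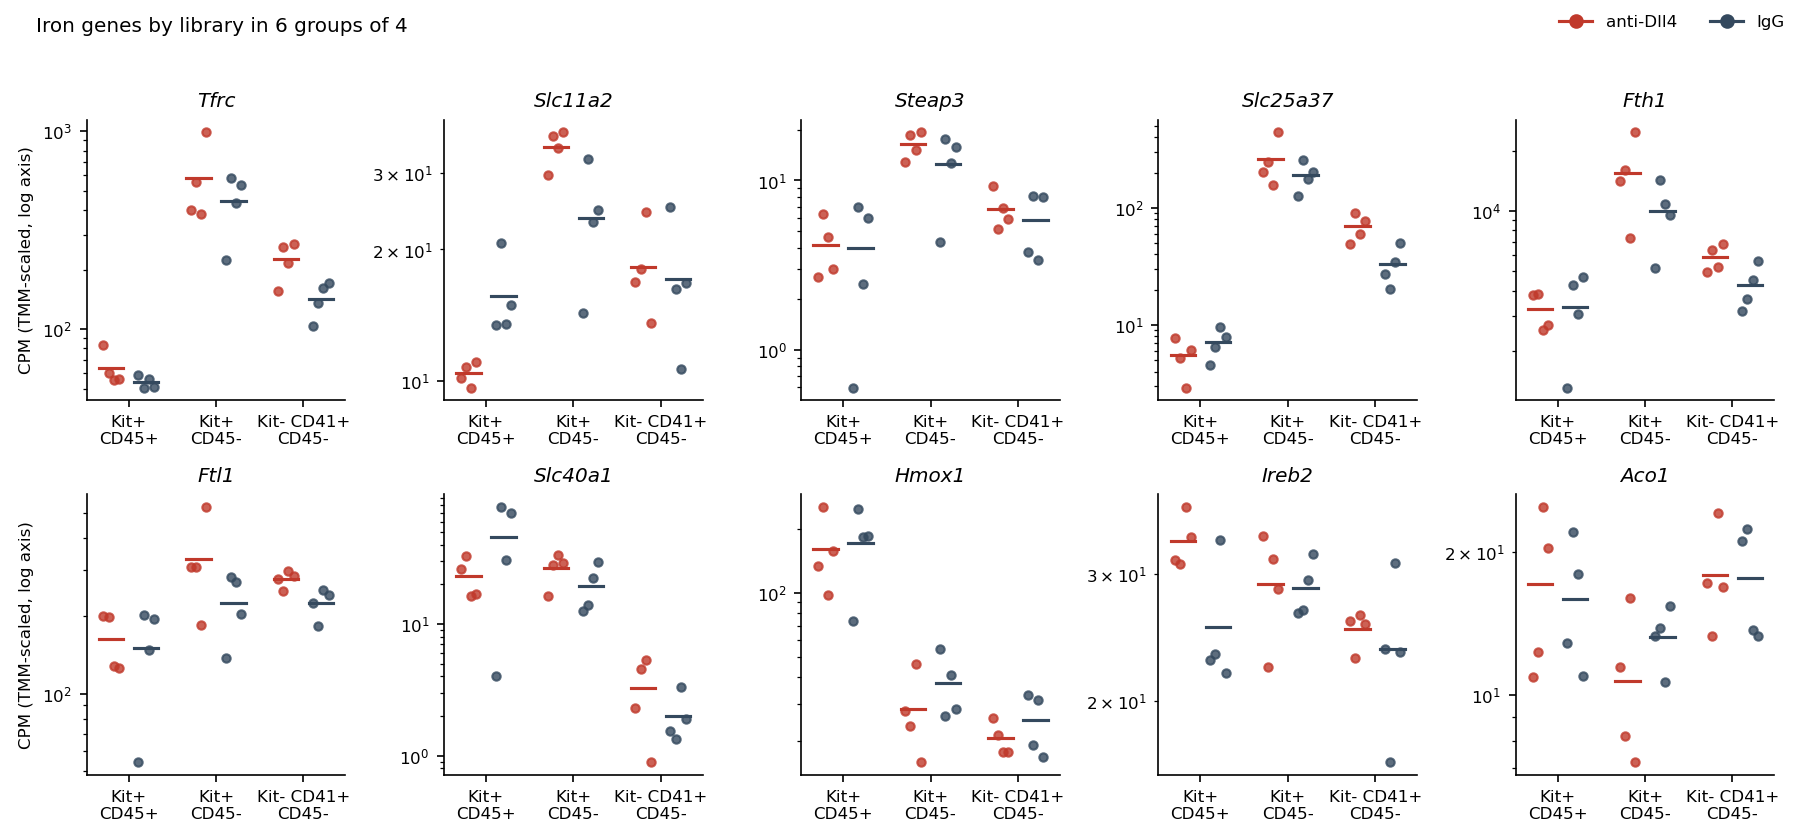
CPM (log axis) of each of the 10 genes in the 24 libraries, by population and antibody; points are libraries in replicate order and the horizontal bar is the group mean. Slc25a37 runs from 2.92 CPM in a Kit+ CD45+ library to 440.1 CPM in a Kit+ CD45- library, while Ireb2 stays between 16.5 and 37.2 CPM in all 24.

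Tfrc (ENSMUSG00000022797.15, chr16:32608920-32632794 on mm10) encodes the transferrin receptor that brings iron-loaded transferrin into the cell. In Kit+ CD45+ cells Tfrc was at 83.0, 60.0, 55.3 and 56.3 CPM under anti-Dll4, against 58.7, 50.8, 56.3 and 51.1 CPM under IgG. In Kit+ CD45- cells it was at 399.8, 553, 381 and 988 CPM under anti-Dll4, against 223, 584, 435 and 535 CPM under IgG. In Kit- CD41+ CD45- cells it was at 157, 262, 217 and 269 CPM under anti-Dll4, against 104, 136, 161 and 171 CPM under IgG. Every Kit+ CD45- library lay above every Kit- CD41+ CD45- library of the same antibody, and each of those above every Kit+ CD45+ library, while the antibody groups overlapped within each population. Under IgG, Tfrc was 8.19-fold lower in Kit+ CD45+ than in Kit+ CD45- cells (log2 -3.03 ± 0.30 SE, adjusted p = 8.64e-08). It was 3.11-fold higher in Kit+ CD45- than in Kit- CD41+ CD45- cells (1.64 ± 0.28, adjusted p = 0.000101) and 2.63-fold lower in Kit+ CD45+ than in Kit- CD41+ CD45- cells (-1.40 ± 0.28, adjusted p = 0.00038). Under anti-Dll4 the same 3 differences were -3.19 ± 0.30, 1.36 ± 0.28 and -1.83 ± 0.28, and all passed (largest adjusted p = 0.000631). The order of the levels was therefore the same under both antibodies, with neighbours that differed at each step.

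Slc11a2 (ENSMUSG00000023030.16, chr15:100387898-100425072) encodes DMT1, which carries iron out of the endosome. It was at 10.2, 10.8, 9.63 and 11.0 CPM in Kit+ CD45+ anti-Dll4 libraries, against 13.4, 20.7, 13.5 and 14.9 CPM in Kit+ CD45+ IgG libraries. Kit+ CD45- cells had 29.6, 36.5, 34.2 and 37.2 CPM under anti-Dll4, against 14.3, 32.3, 23.1 and 24.7 CPM under IgG. Kit- CD41+ CD45- cells had 16.9, 18.0, 24.3 and 13.6 CPM under anti-Dll4, against 25.0, 16.2, 10.6 and 16.8 CPM under IgG. The populations were separated under anti-Dll4 and overlapped under IgG. Under anti-Dll4 it was lower in Kit+ CD45+ than in Kit+ CD45- cells (log2 -1.72 ± 0.25, adjusted p = 1.63e-05) and than in Kit- CD41+ CD45- cells (-0.81 ± 0.25, adjusted p = 0.0122). It was higher in Kit+ CD45- than in Kit- CD41+ CD45- cells by 0.92 ± 0.24 (adjusted p = 0.00602). Under IgG the same pairs gave -0.59 ± 0.24, -0.13 ± 0.24 and 0.46 ± 0.24, with adjusted p of 0.0947, 0.705 and 0.177, so no order of the 3 populations was resolved there. The Kit+ CD45+ against Kit- CD41+ CD45- difference under anti-Dll4 did not pass without replicate 3 of Kit- CD41+ CD45- anti-Dll4 (adjusted p = 0.217).

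Steap3 (ENSMUSG00000026389.16, chr1:120190757-120272705) encodes the endosomal reductase that prepares iron for DMT1, and its counts were low, from 9 to 151 reads per library. It averaged 4.18 ± 1.68 CPM in Kit+ CD45+ anti-Dll4 libraries and 4.00 ± 2.99 CPM in Kit+ CD45+ IgG libraries (SD, n = 4 here and below). Its means were 16.5 ± 3.02 and 12.6 ± 5.86 CPM in Kit+ CD45- cells under anti-Dll4 and IgG, and 6.79 ± 1.78 and 5.83 ± 2.59 CPM in Kit- CD41+ CD45- cells. Steap3 was lower in Kit+ CD45+ than in Kit+ CD45- cells under both antibodies, at log2 -1.97 ± 0.51 under anti-Dll4 (adjusted p = 0.00542) and -1.65 ± 0.51 under IgG (adjusted p = 0.0237). The IgG groups overlapped in that pair, and the call was lost without any one of Kit+ CD45+ IgG replicates 1 and 3 and Kit+ CD45- IgG replicates 2 and 4 (largest adjusted p = 0.106). Kit+ CD45- and Kit- CD41+ CD45- cells differed by 1.27 ± 0.50 under anti-Dll4, where the groups did not overlap but adjusted p was 0.0577.

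Slc25a37 (ENSMUSG00000034248.7, chr14:69241848-69285112) encodes mitoferrin-1, which brings iron into the mitochondria of developing red cells, and it had the widest span of the 10 genes between group means. In Kit+ CD45+ cells it was at 7.73, 5.27, 2.92 and 6.17 CPM under anti-Dll4, against 4.59, 6.51, 9.60 and 7.89 CPM under IgG. Levels in Kit+ CD45- cells were 201, 245, 157 and 440.1 CPM under anti-Dll4, against 127, 255, 175 and 203 CPM under IgG. Levels in Kit- CD41+ CD45- cells were 49.0, 90.6, 59.7 and 77.7 CPM under anti-Dll4, against 27.1, 20.1, 34.5 and 49.8 CPM under IgG. No 2 populations overlapped under either antibody, whereas the antibody groups touched in all 3 populations. Kit+ CD45+ cells were 47.1-fold lower than Kit+ CD45- cells under anti-Dll4 (-5.56 ± 0.39, adjusted p = 4.03e-10) and 26.6-fold lower under IgG (-4.73 ± 0.37, adjusted p = 3.05e-09). Kit+ CD45- cells were 3.76-fold higher than Kit- CD41+ CD45- cells under anti-Dll4 (1.91 ± 0.32, adjusted p = 8.06e-05) and 5.78-fold higher under IgG (2.53 ± 0.33, adjusted p = 3.5e-06). Kit+ CD45+ cells were also lower than Kit- CD41+ CD45- cells, at -3.65 ± 0.36 under anti-Dll4 and -2.20 ± 0.34 under IgG (adjusted p = 3.39e-08 and 1.95e-05).

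**Figure D2:**
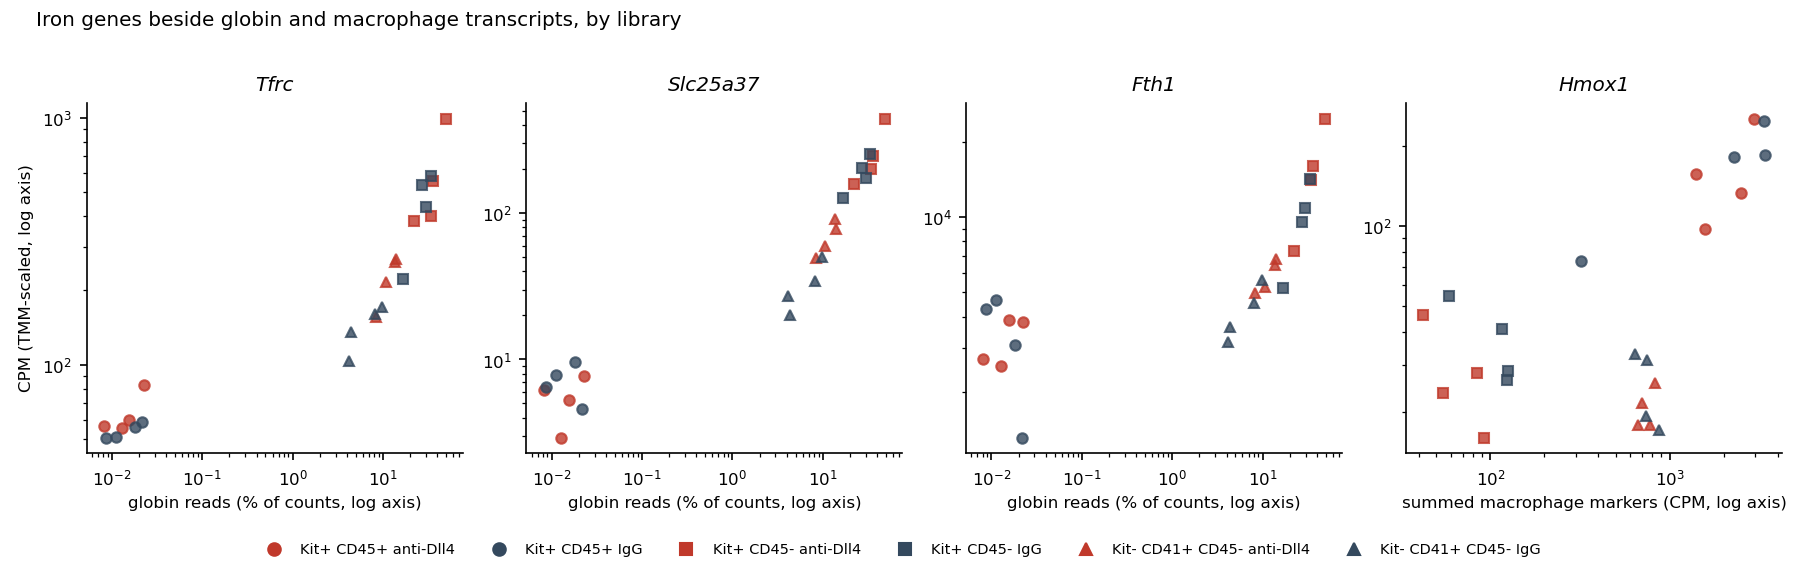
CPM of Tfrc, Slc25a37 and Fth1 against the globin share of counts, and of Hmox1 against the macrophage marker sum, in the 24 libraries (log axes); each point is 1 library, with its shape for the population and its colour for the antibody. Kit+ CD45- libraries, with 16.8% to 49.3% globin, hold the highest Tfrc and Slc25a37, and Kit+ CD45+ IgG replicate 1, with the lowest macrophage sum of its population (322 CPM), holds the lowest Hmox1 there (73.6 CPM).

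The red-cell content of the libraries moved with these uptake genes. The sum of 19 measured erythroid markers was 322 to 434 CPM in Kit+ CD45+ anti-Dll4 libraries and 267 to 407 CPM in Kit+ CD45+ IgG libraries, with Slc4a1 at 0 in both groups. It was 2615 to 6550 CPM under anti-Dll4 and 1911 to 4757 CPM under IgG in Kit+ CD45- cells, and 1479 to 2283 CPM under anti-Dll4 and 1278 to 1600 CPM under IgG in Kit- CD41+ CD45- cells. Within Kit+ CD45- cells, anti-Dll4 replicate 4 had both the highest globin share (49.3%) and the highest Tfrc and Slc25a37, and IgG replicate 1 had the lowest globin share (16.8%) with the lowest Tfrc and Slc25a37. The size of such gaps depends on the scaling, since Tfrc counts of 4520 and 4392 in anti-Dll4 replicates 4 and 2 became 988 and 553 CPM. The part of red-cell content in the differences between populations was not tested.

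Ferritin stores iron in a shell of heavy chains, which oxidise it, and light chains, which help it to form a mineral core. Fth1 (ENSMUSG00000024661.6, chr19:9982703-9985092), the heavy chain, was the most abundant of the 10 per kilobase of exon in all 6 groups and took 0.179% to 1.29% of a library's counts. Fth1 was at 3798, 3866, 2545 and 2693 CPM in Kit+ CD45+ anti-Dll4 libraries, against 1311, 4273, 3068 and 4657 CPM in Kit+ CD45+ IgG libraries. Its levels in Kit+ CD45- cells were 14039, 16004, 7291 and 24703 CPM under anti-Dll4, against 5190.3, 14242, 10883 and 9539 CPM under IgG. Its levels in Kit- CD41+ CD45- cells were 4956, 6413, 5249.9 and 6813 CPM under anti-Dll4, against 3172, 3639, 4542 and 5611 CPM under IgG. Kit+ CD45- cells stood above both other populations in each antibody, apart from an overlap of IgG replicate 1 with Kit- CD41+ CD45- IgG replicate 4. Fth1 was lower in Kit+ CD45+ than in Kit+ CD45- cells, at log2 -2.27 ± 0.36 under anti-Dll4 (adjusted p = 4.32e-05) and -1.58 ± 0.35 under IgG (adjusted p = 0.0021). It was higher in Kit+ CD45- than in Kit- CD41+ CD45- cells by 1.40 ± 0.35 under anti-Dll4 (adjusted p = 0.00324) and by 1.23 ± 0.34 under IgG (adjusted p = 0.00908). Kit+ CD45+ and Kit- CD41+ CD45- cells were neighbours that were not resolved, at -0.86 ± 0.34 under anti-Dll4 (adjusted p = 0.0507, groups not overlapping) and -0.35 ± 0.34 under IgG (adjusted p = 0.454).

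Ftl1 (ENSMUSG00000050708.16, chr7:45457944-45459884), the light chain, averaged 163 ± 41.8 CPM in Kit+ CD45+ anti-Dll4 libraries and 149.5 ± 68.0 CPM in Kit+ CD45+ IgG libraries. It averaged 333 ± 142 and 223 ± 67.1 CPM in Kit+ CD45- cells under anti-Dll4 and IgG, and 278 ± 20.2 and 224 ± 30.4 CPM in Kit- CD41+ CD45- cells. The 2 CD45- populations did not differ in Ftl1 beyond their spread under anti-Dll4 (0.26 ± 0.31, adjusted p = 0.582) or IgG (-0.01 ± 0.31, adjusted p = 0.993). Kit+ CD45+ cells were lower than Kit+ CD45- cells under anti-Dll4 (-1.03 ± 0.31, adjusted p = 0.0161), with overlapping groups, and not past the threshold under IgG (-0.58 ± 0.31, adjusted p = 0.214). That call was lost without Kit+ CD45+ anti-Dll4 replicate 3 or 4 or Kit+ CD45- anti-Dll4 replicate 4 (largest adjusted p = 0.147). Kit+ CD45+ against Kit- CD41+ CD45- cells gave -0.77 under anti-Dll4, where the groups did not overlap. This difference did not pass in the main model but passed with DESeq2 (adjusted p = 0.037). Both ferritin genes have near-identical processed copies, so their counts are uncertain in that respect; the 3 copies of each in the table held at most 24 reads for Ftl1 and 18 for Fth1, or 1.30% and 0.0320% of the parent's count.

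The ratio of the ferritin transcripts had its lowest group means in Kit+ CD45- cells, but no difference passed the threshold after adjustment. The log2 ratio of Ftl1 to Fth1 counts was -4.32 ± 0.07 and -4.49 ± 0.11 in Kit+ CD45+ cells under anti-Dll4 and IgG. It was -5.51 ± 0.16 and -5.44 ± 0.19 in Kit+ CD45- cells, and -4.39 ± 0.28 and -4.22 ± 0.30 in Kit- CD41+ CD45- cells. All 8 Kit+ CD45- libraries lay below the other 16. The ratio in Kit+ CD45+ cells exceeded that in Kit+ CD45- cells by 1.19 under anti-Dll4 and 0.96 under IgG, and the difference of Kit+ CD45- against Kit- CD41+ CD45- cells was -1.12 and -1.23. Each of these 4 differences had p = 0.0286 in a two-sided exact permutation test, the smallest p that the 70 arrangements allow, and 0.103 after Benjamini-Hochberg adjustment over 18 tests of 2 ratios. Kit+ CD45+ and Kit- CD41+ CD45- cells differed by 0.07 under anti-Dll4 and -0.27 under IgG (exact p = 0.629 and 0.114). Anti-Dll4 against IgG gave 0.17, -0.07 and -0.17 in Kit+ CD45+, Kit+ CD45- and Kit- CD41+ CD45- cells (exact p = 0.0857, 0.657 and 0.486).

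**Figure D3:**
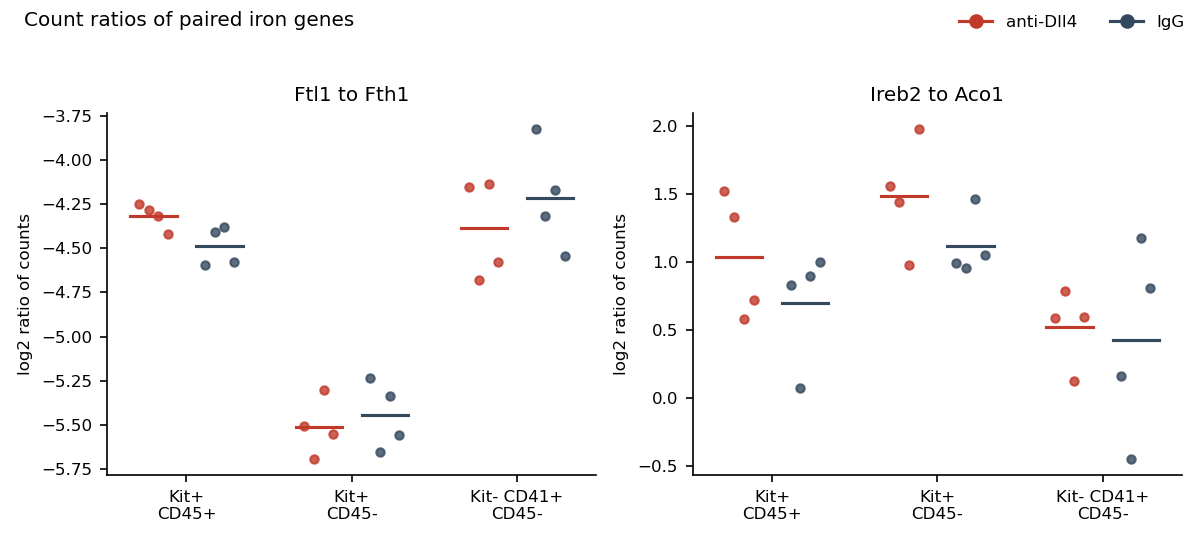
Log2 ratios of counts per library, Ftl1 to Fth1 and Ireb2 to Aco1, by population and antibody; points are libraries and bars are group means. All 8 Kit+ CD45- libraries lie below -5.2 in the Ftl1 to Fth1 ratio and the other 16 above -4.7.

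Slc40a1 (ENSMUSG00000025993.10, chr1:45908068-45926523) encodes ferroportin, the only known iron exporter of vertebrate cells. In Kit+ CD45+ cells it was at 26.4, 32.7, 16.2 and 16.8 CPM under anti-Dll4, against 4.06, 77.3, 30.5 and 69.8 CPM under IgG. Kit+ CD45- libraries had 16.3, 28.0, 33.4 and 29.1 CPM under anti-Dll4, against 12.5, 13.9, 22.4 and 29.3 CPM under IgG. Kit- CD41+ CD45- libraries had 2.31, 4.53, 5.33 and 0.890 CPM under anti-Dll4, against 1.54, 1.33, 3.31 and 1.89 CPM under IgG. Every Kit- CD41+ CD45- library was below every library of both Kit+ populations of the same antibody. Slc40a1 was 7.00-fold higher in Kit+ CD45+ than in Kit- CD41+ CD45- cells under anti-Dll4 (2.81 ± 0.60, adjusted p = 0.000711) and 22.5-fold higher under IgG (4.49 ± 0.65, adjusted p = 6.8e-06). It was 8.12-fold higher in Kit+ CD45- than in Kit- CD41+ CD45- cells under anti-Dll4 (3.02 ± 0.61, adjusted p = 0.000528) and 9.71-fold higher under IgG (3.28 ± 0.63, adjusted p = 0.000346). The 2 Kit+ populations differed by -0.21 ± 0.54 under anti-Dll4 (adjusted p = 0.81) and 1.21 ± 0.55 under IgG (adjusted p = 0.127). Without Kit+ CD45+ IgG replicate 1, the lowest of its group, the IgG difference was 1.60 with adjusted p = 0.00957, so whether it passed depended on that library.

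Hmox1 (ENSMUSG00000005413.8, chr8:75093621-75100589) encodes heme oxygenase 1, which opens the heme ring and frees its iron. It was at 133, 253, 97.3 and 157 CPM in Kit+ CD45+ anti-Dll4 libraries, against 73.6, 248, 182 and 184 CPM in Kit+ CD45+ IgG libraries. Kit+ CD45- cells held 27.9, 23.6, 46.1 and 16.0 CPM under anti-Dll4, against 54.4, 26.2, 41.0 and 28.3 CPM under IgG. Kit- CD41+ CD45- cells held 25.7, 21.5, 17.8 and 17.8 CPM under anti-Dll4, against 33.0, 19.2, 31.2 and 17.0 CPM under IgG. All Kit+ CD45+ libraries lay above all others in Hmox1. It was higher in Kit+ CD45+ than in Kit+ CD45- cells by 2.48 ± 0.36 under anti-Dll4 (5.58-fold, adjusted p = 1.92e-05) and 2.19 ± 0.36 under IgG (4.58-fold, adjusted p = 0.000101). It was higher than in Kit- CD41+ CD45- cells by 2.95 ± 0.37 under anti-Dll4 (7.73-fold, adjusted p = 9.81e-07) and 2.78 ± 0.37 under IgG (6.85-fold, adjusted p = 2.01e-06). The 2 CD45- populations were not resolved from each other (0.47 ± 0.36 under anti-Dll4, 0.58 ± 0.35 under IgG, adjusted p = 0.351 and 0.236).

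Macrophage markers moved with Hmox1 and with Slc40a1 in most Kit+ CD45+ libraries, but not in all. Anti-Dll4 replicate 4 had the lowest macrophage sum of its group (1402 CPM), with Hmox1 at 157 CPM, above replicates 1 and 3. The sum of 19 measured macrophage markers was 1402 to 2935 CPM in Kit+ CD45+ anti-Dll4 libraries and 322 to 3395 CPM in Kit+ CD45+ IgG libraries, with Cd163 at 0 in the anti-Dll4 group. It was 42.2 to 92.0 and 59.0 to 125 CPM in Kit+ CD45- cells under anti-Dll4 and IgG, where Adgre1, Cd163 and Ctss were at 0 in both groups. Kit- CD41+ CD45- cells had 667 to 826 and 637 to 874 CPM, with Cd163 at 0 in both groups and Adgre1, C1qa and Ctss also at 0 under anti-Dll4. Their macrophage sums were thus above those of Kit+ CD45- cells, while their mean Hmox1 and Slc40a1 were not. Kit+ CD45+ IgG replicate 1 had a macrophage sum of 322 CPM, against 2279 to 3395 CPM in the other 3 replicates, and it also had the lowest Slc40a1, Hmox1, Fth1 and Ftl1 of its group. Slc40a1 averaged 23.0 ± 7.97 CPM in Kit+ CD45+ cells and 26.7 ± 7.33 CPM in Kit+ CD45- cells under anti-Dll4. Under IgG its means were 45.4 ± 34.4 and 19.6 ± 7.84 CPM in the same order. The part of macrophage content in the Hmox1 and Slc40a1 differences was not tested.

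Ireb2 (ENSMUSG00000032293.8, chr9:54863789-54912530) encodes iron regulatory protein 2, which is degraded when iron is plentiful. It averaged 33.3 ± 2.84 and 25.4 ± 5.46 CPM in Kit+ CD45+ cells under anti-Dll4 and IgG, 29.1 ± 5.00 and 28.7 ± 2.58 CPM in Kit+ CD45- cells, and 23.6 ± 5.96 CPM in Kit- CD41+ CD45- cells under IgG, where the 4 anti-Dll4 libraries had 23.0 to 26.3 CPM. Its 6 pairwise differences between populations spanned -0.18 to 0.40, and none passed (smallest adjusted p = 0.0754). Aco1 (ENSMUSG00000028405.9, chr4:40143081-40198338) encodes iron regulatory protein 1, which serves as cytosolic aconitase when it holds an iron-sulfur cluster. It averaged 17.1 ± 6.65 and 15.9 ± 5.03 CPM in Kit+ CD45+ cells under anti-Dll4 and IgG, 10.7 ± 3.96 and 13.3 ± 1.96 CPM in Kit+ CD45- cells, and 17.9 ± 4.52 and 17.6 ± 4.77 CPM in Kit- CD41+ CD45- cells. Its differences spanned -0.72 to 0.66, with a smallest adjusted p of 0.0733. Single libraries decided this for Aco1 under anti-Dll4. Without Kit+ CD45- replicate 3, Kit+ CD45- against Kit- CD41+ CD45- cells gave -0.99 (adjusted p = 0.0228 by edgeR). Kit+ CD45+ against Kit+ CD45- cells then gave 0.93 (adjusted p = 0.0299), and 0.83 without Kit+ CD45+ replicate 1 instead (adjusted p = 0.0447). The log2 ratio of Ireb2 to Aco1 counts was 1.49 ± 0.41 in Kit+ CD45- and 0.52 ± 0.28 in Kit- CD41+ CD45- cells under anti-Dll4, without overlap (exact p = 0.0286, adjusted 0.103). Under IgG the same 2 populations had 1.12 ± 0.24 and 0.43 ± 0.71 (exact p = 0.143).

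Levels of different genes can be set side by side only per kilobase of exon. On that scale Fth1 led every group, with 929.8 and 959 CPM per kb in Kit+ CD45+ cells under anti-Dll4 and IgG, 4471 and 2872 CPM per kb in Kit+ CD45- cells, and 1689 and 1223 CPM per kb in Kit- CD41+ CD45- cells. Exon lengths were those of GENCODE M21. For Fth1 that length (3469 bases) exceeds the whole span of the counted gene, chr19:9982703-9985092, so its values per kb are too low. Ftl1 followed at 112 to 248 CPM per kb in the 6 groups. In Kit+ CD45+ cells the next gene was Hmox1 (91.4 and 98.3 CPM per kb under anti-Dll4 and IgG), ahead of Tfrc (10.3 and 8.76 CPM per kb). In Kit+ CD45- cells Tfrc (93.9 and 71.8 CPM per kb) and Slc25a37 (43.3 and 31.5 CPM per kb) stood ahead of Hmox1 (16.2 and 21.4 CPM per kb). Steap3, Slc11a2, Slc40a1, Ireb2 and Aco1 were all between 0.224 and 5.41 CPM per kb.

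**Figure D4:**
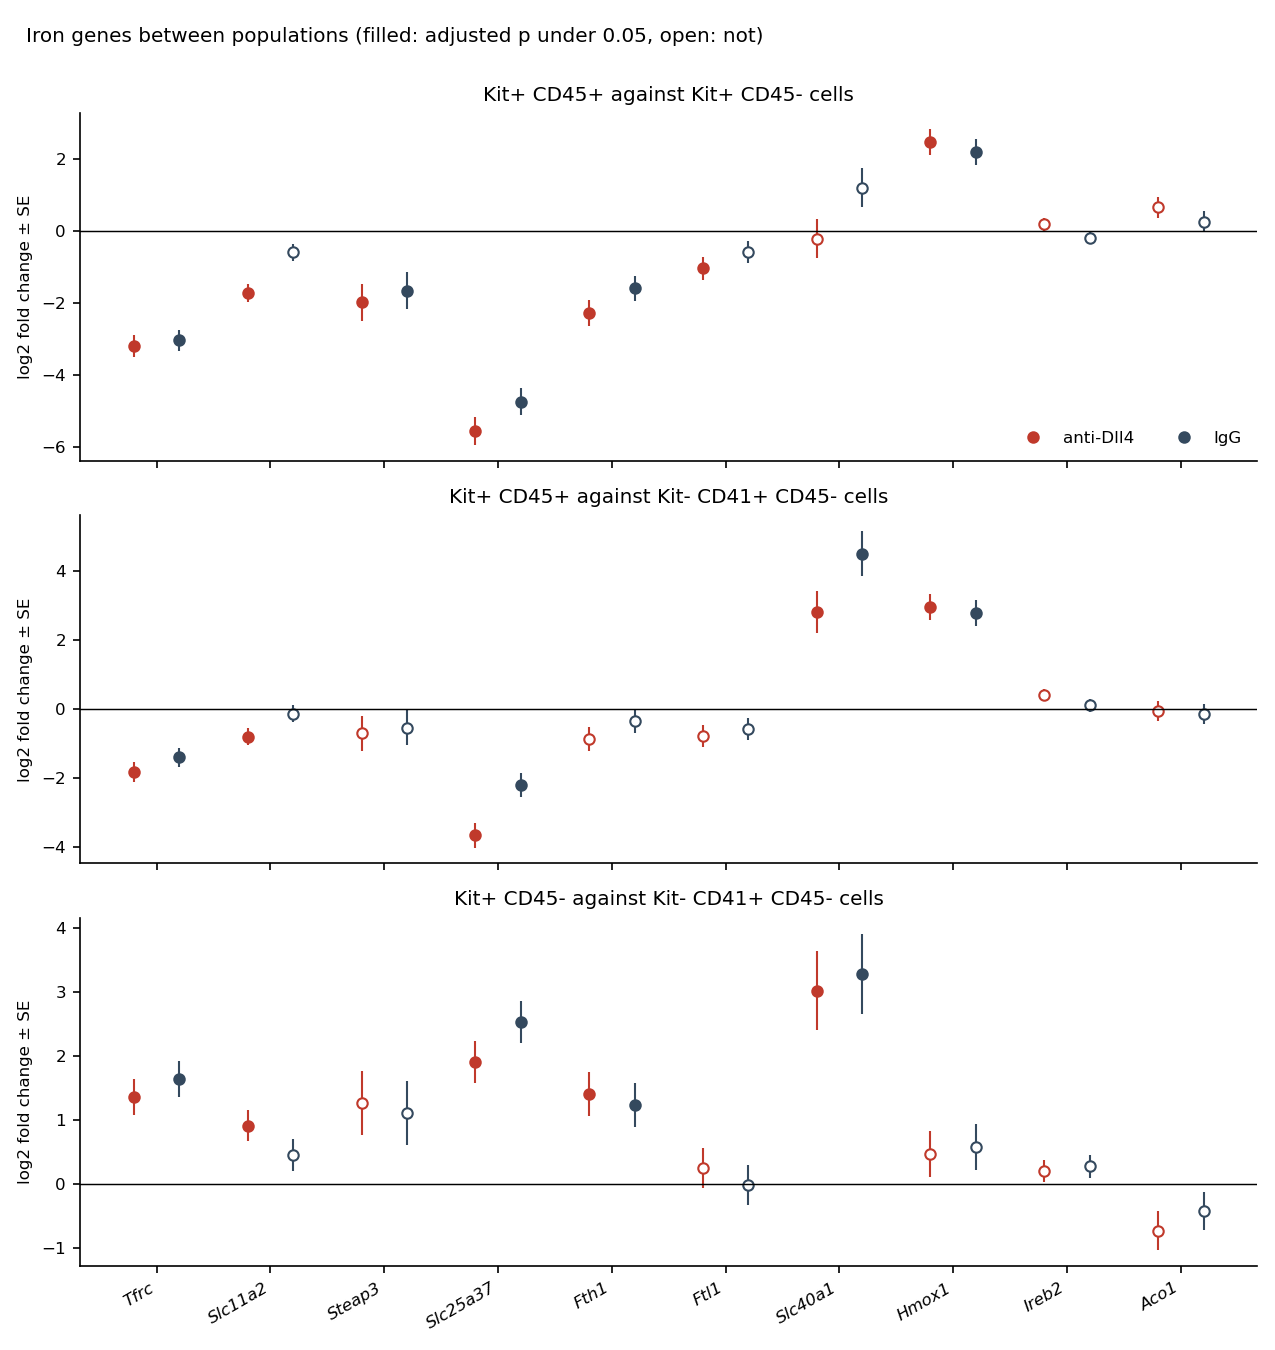
Log2 differences between populations for the 10 genes under anti-Dll4 and under IgG, with SE as error bars (edgeR); filled circles have an adjusted p under 0.05 and open ones do not. Slc25a37 lies farthest below 0 and Hmox1 farthest above 0 in Kit+ CD45+ against Kit+ CD45- cells, and under IgG Slc40a1 is highest in both comparisons against Kit- CD41+ CD45- cells.

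Counted over the 10 genes, Kit+ CD45+ against Kit+ CD45- cells differed most often. Under anti-Dll4, 1 gene was higher and 6 were lower in Kit+ CD45+ cells, where 16.6% and 12.6% of all tested genes were higher and lower. Under IgG, 1 was higher and 4 were lower, with 10% and 9.18% of all genes called in these directions. The median log2 difference of the 10 genes was -1.38 under anti-Dll4 and -0.58 under IgG, against 0.10 and 0.04 over all tested genes.

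Kit+ CD45- against Kit- CD41+ CD45- cells gave 5 higher and 0 lower genes under anti-Dll4 (14.7% and 15.2% of all genes) and 4 higher and 0 lower under IgG (14% and 13.8%). The medians were 1.09 and 0.84, against 0.07 and 0.06 over all genes. Kit+ CD45+ against Kit- CD41+ CD45- cells gave 2 higher and 3 lower under anti-Dll4 (20.4% and 17.3% of all genes) and 2 higher and 2 lower under IgG (19.7% and 17.5%), with medians of -0.73 and -0.25 against 0.06 and 0.05. The pairs share libraries, so their counts are not separate evidence. Of the 30 calls over the 6 population pairs, 25 passed under each of the 35 other settings tried, which include leaving out the 3 libraries of anti-Dll4 replicate 1, and none changed direction.

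The series set anti-Dll4 against IgG in each population to find genes that differ with the antibody, in a study of how Dll4 bears on hemogenic cells that enter the clusters of the aorta. None of the 10 iron genes passed the test in any population. In Kit+ CD45- cells 0 of the 10 passed, and 0% of all genes did by edgeR, with 1733 genes at an unadjusted p under 0.05 and 82 genes called by DESeq2. In Kit- CD41+ CD45- cells 0 of the 10 passed, as did 0% of all genes, with 435 at an unadjusted p under 0.05 and 2 called by DESeq2. In Kit+ CD45+ cells 0 of the 10 passed, against 0.0064% of all genes, with 453 genes at an unadjusted p under 0.05 and 14 called by DESeq2. DESeq2 called none of the 10 either. Full separation of the antibody groups was seen for 0 of the 10 genes in Kit+ CD45- cells (3.15% of all genes), for 0 in Kit- CD41+ CD45- cells (2.22%) and for 1, Slc11a2, in Kit+ CD45+ cells (1.8%).

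**Figure D5:**
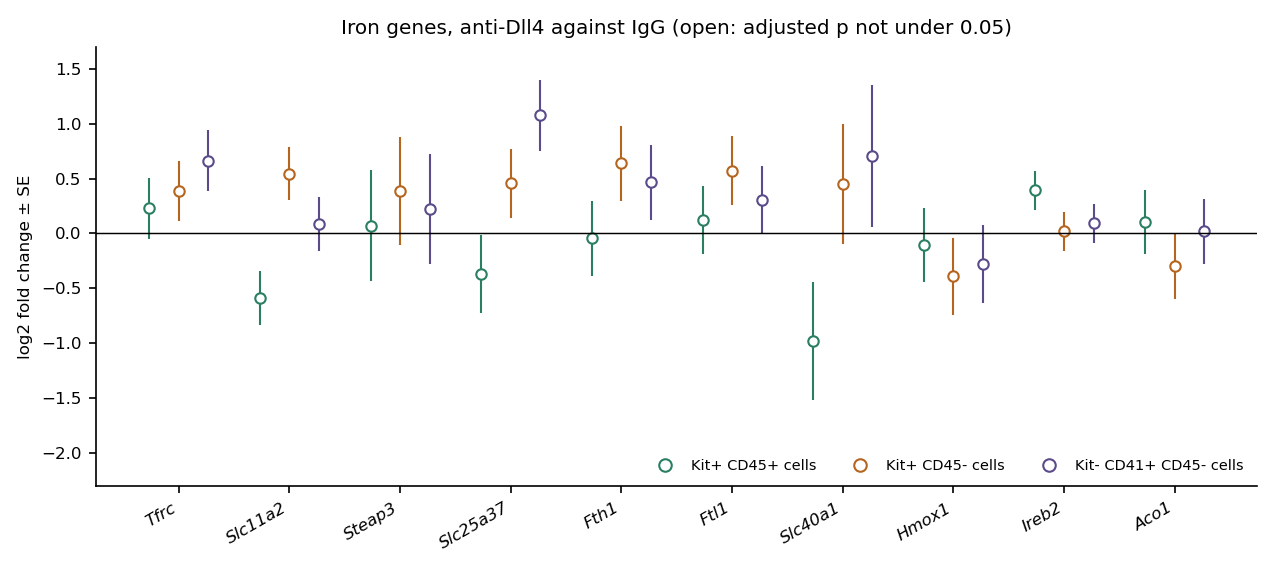
Log2 difference of anti-Dll4 against IgG for the 10 genes in each population, with SE as error bars (edgeR); no gene has an adjusted p under 0.05. Slc25a37 in Kit- CD41+ CD45- cells has the highest estimate (1.08) and Slc40a1 in Kit+ CD45+ cells the lowest (-0.98).

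The largest antibody estimate was Slc25a37 in Kit- CD41+ CD45- cells, at 1.08 ± 0.32 (unadjusted p = 0.00275, adjusted p = 1 by edgeR), where the highest IgG library (49.8 CPM) lay just above the lowest anti-Dll4 library (49.0 CPM). Tfrc in the same cells was at 0.66 ± 0.28 (unadjusted p = 0.0249, adjusted p = 1), with 3 of 4 anti-Dll4 libraries above every IgG library. The globin share of these libraries was 8.33%, 13.7%, 10.7% and 14.1% under anti-Dll4 against 4.17%, 4.40%, 8.15% and 9.79% under IgG. With the log2 of each library's globin share as a covariate, and 1 slope shared by all 6 groups, the estimates were 0.55 for Slc25a37 and 0.11 for Tfrc. Without the 3 libraries of anti-Dll4 replicate 1 they were 1.22 and 0.81.

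In Kit+ CD45- cells 8 of the 10 estimates were above 0, with a median of 0.42 against -0.03 over all genes. Fth1 was at 0.64 ± 0.34, Ftl1 at 0.57 ± 0.31, Slc11a2 at 0.55 ± 0.24, Slc25a37 at 0.46 ± 0.31 and Tfrc at 0.39 ± 0.27 (adjusted p = 0.479, 0.486, 0.418, 0.578 and 0.593 by edgeR). The globin share was 34.0%, 36.2%, 22.1% and 49.3% under anti-Dll4 against 16.8%, 33.7%, 29.8% and 27.4% under IgG. With the same log2 globin covariate the estimates were 0.46 for Fth1, 0.47 for Ftl1, 0.58 for Slc11a2, 0.18 for Slc25a37 and 0.14 for Tfrc. Without anti-Dll4 replicate 4, Tfrc was at 0.01 and Slc25a37 at 0.09, and without IgG replicate 1 they were at 0.16 and 0.30.

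In Kit+ CD45+ cells, where globin was at most 0.0226% of counts, 5 of the 10 estimates were above 0 and their median was 0.01. Slc11a2 was lower in all 4 anti-Dll4 libraries than in any IgG library, at -0.59 ± 0.25 (unadjusted p = 0.025, adjusted p = 1), and Ireb2 was at 0.39 ± 0.18 (unadjusted p = 0.0349, adjusted p = 1). Slc40a1 was at -0.98 ± 0.54 (adjusted p = 1), and at -1.36 without the macrophage-poor IgG replicate 1. Whether the antibody effect differed between populations was tested with 2 degrees of freedom: 0 of the 10 genes passed, against 0.0256% of all genes. The smallest unadjusted p-values were 0.0114 for Slc11a2 and 0.0214 for Slc25a37 (adjusted p = 1 for both), so their opposite signs in different populations were not established.

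Iron genes outside the 10 were read from 7 lists with 75 genes, of which 68 were in the count table and 63 were tested. Between Kit+ CD45+ and Kit+ CD45- cells, 8 of the 63 were higher and 25 lower under anti-Dll4, and 9 higher and 21 lower under IgG. Of all tested genes, 16.6% and 12.6% were higher and lower there under anti-Dll4, and 10% and 9.18% under IgG. Between Kit+ CD45- and Kit- CD41+ CD45- cells, 21 were higher and 5 lower under anti-Dll4, and 22 higher and 5 lower under IgG. Here the shares over all tested genes were 14.7% and 15.2% under anti-Dll4, and 14% and 13.8% under IgG. Between Kit+ CD45+ and Kit- CD41+ CD45- cells, 12 were higher and 21 lower under anti-Dll4, and 10 higher and 22 lower under IgG. In this pair the shares over all tested genes were 20.4% and 17.3% under anti-Dll4, and 19.7% and 17.5% under IgG. The median log2 differences of the 63 were -0.30 and -0.18, 0.43 and 0.41, and -0.29 and -0.22 under anti-Dll4 and IgG in these 3 pairs. Over all tested genes the medians were 0.10 and 0.04, 0.07 and 0.06, and 0.06 and 0.05. None of the 63 passed for the antibody in any population. The shares over all tested genes in each pair also apply to the single lists below.

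The heme synthesis genes followed the order of Tfrc and Slc25a37. Of these 9 genes, 8 were lower and 1 higher in Kit+ CD45+ than in Kit+ CD45- cells, and 8 were higher and none lower in Kit+ CD45- than in Kit- CD41+ CD45- cells, under each antibody. The median log2 difference of Kit+ CD45+ against Kit+ CD45- cells was -3.63 under anti-Dll4 and -3.14 under IgG. Urod, which acts midway in the pathway, averaged 77.4 and 903 CPM in Kit+ CD45+ and Kit+ CD45- cells under anti-Dll4, and 70.3 and 621 CPM under IgG (-3.54 ± 0.24 and -3.14 ± 0.24, adjusted p = 3.19e-10 and 1.52e-09). Alas2, the erythroid enzyme of the first step and itself under an iron-responsive element, averaged 0.483 and 2341 CPM in these populations under anti-Dll4, and 0.601 and 1756 CPM under IgG. Alad, which joins the first pathway intermediates, averaged 1061 and 319 CPM in Kit+ CD45- and Kit- CD41+ CD45- cells under anti-Dll4 and 709 and 188 CPM under IgG (1.73 ± 0.24 and 1.91 ± 0.24, adjusted p = 6.95e-06 and 2.37e-06).

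Of 18 mitochondrial iron and iron-sulfur cluster genes, none was higher and 11 were lower in Kit+ CD45+ than in Kit+ CD45- cells under anti-Dll4, and 1 was higher and 9 were lower under IgG. Abcb10, a mitochondrial transporter that stabilises mitoferrin-1, averaged 6.76 and 89.9 CPM in Kit+ CD45+ and Kit+ CD45- cells under anti-Dll4 and 5.02 and 56.3 CPM under IgG (-3.73 ± 0.32 and -3.49 ± 0.32, adjusted p = 7.31e-09 and 2.5e-08). Glrx5, which passes on iron-sulfur clusters, averaged 282 and 1536 CPM under anti-Dll4 and 273 and 1020.3 CPM under IgG in the same populations (-2.44 ± 0.29 and -1.90 ± 0.28, adjusted p = 1.13e-06 and 3.64e-05).

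Of the 12 tested genes of the uptake list, 2 were higher and 2 lower in Kit+ CD45+ than in Kit+ CD45- cells under anti-Dll4. Under IgG, 4 were higher and 1 lower. The counts under anti-Dll4 were near the shares of 16.6% and 12.6% over all tested genes, which were 10% and 9.18% under IgG. Slc39a8, a metal importer of the ZIP family, averaged 21.4 and 246 CPM in these populations under anti-Dll4 and 27.2 and 195 CPM under IgG (-3.52 ± 0.27 and -2.84 ± 0.26, adjusted p = 1.16e-09 and 2.61e-08). Exoc6, an exocyst subunit needed for transferrin recycling in mouse red-cell precursors, ran the other way from Tfrc between the CD45- populations. It averaged 123 and 288 CPM in Kit+ CD45- and Kit- CD41+ CD45- cells under anti-Dll4 and 137 and 306 CPM under IgG (-1.23 ± 0.15 and -1.17 ± 0.15, adjusted p = 8.72e-07 and 2.14e-06).

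Of 3 storage and chaperone genes, Ncoa4, the receptor that takes ferritin to the lysosome, was lower in Kit+ CD45+ than in Kit+ CD45- cells, at 4.27 and 14.1 CPM under anti-Dll4 and 4.84 and 11.2 CPM under IgG (-1.72 ± 0.25 and -1.21 ± 0.25, adjusted p = 1.82e-05 and 0.00112). Pcbp2 of the same list went the other way under anti-Dll4, at 309 and 243 CPM (0.35 ± 0.12, adjusted p = 0.0345). Among 5 export and hepcidin genes, 1 was higher and 1 lower in Kit+ CD45+ than in Kit+ CD45- cells under anti-Dll4, and 1 higher and none lower under IgG. Hfe, a partner of the transferrin receptors, averaged 12.1 and 1.42 CPM in these populations under anti-Dll4 and 15.6 and 2.42 CPM under IgG (3.04 ± 0.78 and 2.68 ± 0.74, adjusted p = 0.00482 and 0.0123).

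Of 9 genes of heme breakdown and transport, 2 were higher and 2 lower in Kit+ CD45+ than in Kit+ CD45- cells under each antibody. Blvrb, a biliverdin reductase, averaged 40.5 and 1337 CPM in Kit+ CD45+ and Kit+ CD45- cells under anti-Dll4 and 41.4 and 823 CPM under IgG (-5.04 ± 0.43 and -4.31 ± 0.41, adjusted p = 6.67e-09 and 5.44e-08). Blvrb was thus low in Kit+ CD45+ cells, where Hmox1 was high. Of 7 genes that control the iron regulatory proteins or carry their elements, 1 was higher and none lower in Kit+ CD45+ than in Kit+ CD45- cells under anti-Dll4, and none passed under IgG. The gene higher was Fbxl5, the ubiquitin ligase subunit that removes iron regulatory protein 2, at 87.8 and 54.0 CPM (0.70 ± 0.17, adjusted p = 0.00298).

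The genes whose pattern was most like that of a member were taken as the 3 with the highest Pearson r of log2 CPM over the 24 libraries, among 9320 genes. These libraries fall into 3 populations, and both genes of a pair come from the same library and depth, so r describes mainly the order of the populations and carries no p. For Tfrc they were Josd2 (r = 0.987), Mgst3 (0.985) and Alad (0.985), and for Slc25a37 Mgst3 (0.990), Hesx1 (0.983) and Asb17os (0.983). For Fth1 they included Ifi35 (0.972) and Gpx1 (0.960), and for Ftl1 they were Spaca9 (0.952), Ccnb2 (0.946) and Tmem256 (0.935). For Slc40a1 they were Stab1 (0.943), Ubl3 (0.905) and Ctsb (0.899), and for Hmox1 Ms4a6d (0.950), Fcgrt (0.949) and Grap (0.948). Slc11a2 was nearest to Tstd2 (0.886), Ccna2 (0.859) and Ucp2 (0.854), and Steap3 to Pir (0.874), Icam4 (0.869) and Dmtn (0.867). Ireb2 and Aco1 had no close neighbours, with Fzd3 (0.697), Ermp1 (0.671) and Prom1 (0.631) for Ireb2 and Maea (0.794), Scarb1 (0.787) and Sept9 (0.767) for Aco1.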

How the data were processed

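PolyA RNA of sorted cells was turned into cDNA, amplified by long-distance PCR and sequenced on an Illumina HiSeq instrument, per the labels' protocols. Reads carry no molecular identifiers here, so counts are not independent molecules, and the labels do not say whether the counting used strand. The deposited count table holds raw read counts per gene. A second deposited table gives log2 values that the authors normalized, equal log2(count / size factor + 1) to within 5.2e-14 (size factors 0.454 to 1.56); it was used only for gene names and mm10 positions, and 1 of its columns, of no listed sample, was not used. The authors' build was mm10 and their tools STAR, HTSeq, DESeq2, FastQC and CASAVA 1.4, per the submitters' processing notes; what each did, and the annotation release, is not given in the sources used here.

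Counts were fitted with edgeR 4.0.16 in R 4.3.3 (limma 3.58.1): TMM factors, filterByExpr with a minimum count of 10, 1 coefficient for each of the 6 groups over all 24 libraries, 18 residual degrees of freedom, the quasi-likelihood F-test, and Benjamini-Hochberg adjustment over 15618 genes in each of 10 comparisons. The steps were tested on simulated data. Ratios used counts plus 0.5. Likeness used log2 CPM with a prior count of 2, over genes averaging at least 5 CPM. All 10 members are named. Of the genes most like Fth1, 1 is not reported here. Of each other iron list, the called genes with the smallest p in a comparison are named. The members, lists and tests were chosen with earlier results of these data known. Other normalizations, DESeq2 1.42.0, count filters, a fold minimum of 1.5, a replicate block, a globin covariate and leaving out libraries were tried. Sequences and exon lengths come from GENCODE M21, whose versioned identifiers match those of 8 of the 10 members, all but Tfrc and Fth1.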

Additional observations from a re-analysis of the deposited data

Results flagged for a closer look

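In 78 groups of 4 libraries, over member levels, ratios and library measures, 2 held a library far from the other 3, where chance gives about 1 in 20. Tfrc was at 83.0 CPM in Kit+ CD45+ anti-Dll4 replicate 1, against 55.3 to 60.0 CPM in the other 3. Ireb2 was at 33.5 CPM in Kit+ CD45+ IgG replicate 3, against 21.9 to 23.2 CPM in the other 3.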

How the results depend on the processing

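Of 30 member calls between populations, 25 passed under all 35 settings and 5 were lost under at least 1: a fold minimum of 1.5 ended the calls of Fth1 (IgG) and Slc11a2 (anti-Dll4) in Kit+ CD45- against Kit- CD41+ CD45- cells, and the other 3 also depended on single libraries, as given above. No antibody effect of a member passed under any setting. Some uncalled pairs passed under others, such as Fth1 in Kit+ CD45+ against Kit- CD41+ CD45- cells under anti-Dll4 with DESeq2 (adjusted p = 0.0304), and the cause was not tested.

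Numbers of genes called for the antibody in Kit+ CD45+, Kit+ CD45- and Kit- CD41+ CD45- cells, and for its difference between populations, were 1, 0, 0 and 4. DESeq2 gave 14, 82, 2 and 25. Without a count filter they were 0, 0, 1 and 0, a minimum count of 50 gave 3 in Kit+ CD45- cells, and fitting only the compared groups, or a fold minimum of 1.5, gave 0 in Kit+ CD45+ cells. With a replicate block they were 1 in Kit- CD41+ CD45- cells and 1 for the difference. Leaving out single libraries, or the 3 of anti-Dll4 replicate 1, gave 0 to 1, 0 to 23 (23 without Kit+ CD45- anti-Dll4 replicate 1), 0 to 1 and 0 to 7.

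With a fold minimum of 1.5, the calls between populations under anti-Dll4 and IgG were 1954 and 1303 (Kit+ CD45+ against Kit+ CD45-), 2291 and 2219 (Kit+ CD45- against Kit- CD41+ CD45-), and 3401 and 3437 (Kit+ CD45+ against Kit- CD41+ CD45-), against 4560 and 2998, 4672 and 4357, and 5875 and 5815. Upper-quartile factors moved the median of all genes by 0.14 and 0.10 in Kit+ CD45- against Kit- CD41+ CD45- cells under anti-Dll4 and IgG and by -0.11 in Kit+ CD45+ against Kit+ CD45- cells under anti-Dll4. The share of calls that were higher was then 61.3% instead of 49.0% in Kit+ CD45- against Kit- CD41+ CD45- cells under anti-Dll4. In Kit+ CD45+ against Kit+ CD45- cells it was 46.2% instead of 56.8% under anti-Dll4 and 41.8% instead of 52.2% under IgG.

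Only uncalled member values near 0 changed sign, and the cause was not tested. Ftl1 in Kit+ CD45- against Kit- CD41+ CD45- cells under IgG (-0.01) was 0.000547 with RLE factors, 0.0975 with upper-quartile factors, 0.000735 with DESeq2 and 0.00309 without globin genes. The antibody estimates of Aco1 in Kit- CD41+ CD45- cells (-0.0104) and Fth1 in Kit+ CD45+ cells (0.0777) changed sign with the replicate block, and those of Ireb2 in Kit+ CD45- cells (-0.00744) and Hmox1 in Kit- CD41+ CD45- cells (0.227) with the globin covariate. Leaving out libraries gave antibody estimates in Kit+ CD45+ cells of -0.131 to 0.299 (Aco1), -0.311 to 0.160 (Fth1), -0.156 to 0.300 (Ftl1), -0.415 to 0.125 (Hmox1) and -0.294 to 0.492 (Steap3). In Kit- CD41+ CD45- cells they were -0.151 to 0.154 (Aco1), -0.0490 to 0.250 (Ireb2) and -0.0871 to 0.325 (Slc11a2), and in Kit+ CD45- cells -0.0538 to 0.138 (Ireb2). Between populations they were -0.292 to 0.104 for Aco1 (Kit+ CD45+ against Kit- CD41+ CD45-, anti-Dll4), -0.0609 to 0.262 for Ireb2 and -0.305 to 0.106 for Slc11a2 (same pair, IgG). Ftl1 in Kit+ CD45- against Kit- CD41+ CD45- cells was at -0.0668 to 0.456 under anti-Dll4 and -0.158 to 0.166 under IgG.

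Replicate numbers were not treated as pairing in the main model, since the labels do not say in words what a number shares. Between antibodies within a population, 0 of 12 same-numbered pairs had deviations correlated over 0.1, against 5 of 36 others. Between populations under 1 antibody, 6 of 24 same-numbered pairs did (-0.06 to 0.20, median 0.05), against 3 of 72 others (-0.23 to 0.17, median -0.02). There the best match of a library in another population had its own number in 31 of 48 cases. The count columns of the 3 populations also share a leading number for each antibody and replicate. Only the 3 libraries of anti-Dll4 replicate 1 had many Ddx3y and almost no Xist counts. Same-numbered populations under 1 antibody may therefore share embryos, which the p-values between populations in the main model leave out. A replicate block by antibody and number ended no call of an iron gene, and more passed in edgeR's test with Benjamini-Hochberg adjustment. Under anti-Dll4 these were Steap3 (log2 difference 1.25, adjusted p = 0.0135) and Aco1 (-0.74, 0.0282) in Kit+ CD45- against Kit- CD41+ CD45- cells, and Fth1 (-0.86, 0.0103), Ftl1 (-0.79, 0.0395) and Ireb2 (0.41, 0.0376) in Kit+ CD45+ against Kit- CD41+ CD45- cells. Under IgG it was Steap3 (1.02, 0.0439) in Kit+ CD45- against Kit- CD41+ CD45- cells. With the number alone as the replicate block, Fth1 (-0.81, 0.0382) and Ireb2 (0.40, 0.0409) passed in Kit+ CD45+ against Kit- CD41+ CD45- cells under anti-Dll4. Steap3 and Slc40a1 had as few as 9 and 8 reads in a library, which limits their estimates.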
